A study of Mus musculus with 12 samples.

Results

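The genes described here are 10 markers of alternatively activated and tissue-resident macrophages: Arg1, Retnla, Chil3, Mrc1, Clec10a, Mgl2, Cd163, Folr2, Lyve1 and Il4ra. They were taken as every probe set whose platform annotation names 1 of these genes, which gave 13 probe sets for 10 of the 18194 genes named on the array, and a gene was read from its brightest probe set. The tissue was the cervix of pregnant CD1 mice, an outbred strain, on gestation day 15. In 1 group, 6 samples came from dams given 1 mg of medroxyprogesterone acetate (MPA), a progestin drug that acts on progesterone receptors and, less strongly, on glucocorticoid receptors, under the skin for 48 h; in the other, 6 came from dams given an equal volume of ethanol, called vehicle below. No genotype other than the strain is given, and whether dams were pooled or shared between arrays is not stated, so the p values measure the spread between samples, which may be technical in part. RNA came from whole tissue, in which fewer cells of a type and less RNA per cell cannot be told apart.

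Macrophages take up different programmes in different surroundings. Interleukin-4 and interleukin-13, acting through the receptor chain Il4ra and the transcription factor Stat6, induce the alternatively activated state in mouse cells, of which Arg1, Retnla and Chil3 are the usual marks and Mrc1, Clec10a and Mgl2 further ones. Cd163, Folr2 and Lyve1 mark macrophages that reside in tissues, often along vessels and in connective tissue. Several of these genes are also active elsewhere: Lyve1 in lymphatic endothelium, Arg1 in liver and in some epithelia, and Retnla in fat.

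Of the 10 genes, 7 passed the filter, a log2 intensity above 4 on at least 6 arrays, as did 8795 genes in all. None of the 7 was called different between MPA and vehicle by limma with Benjamini-Hochberg adjustment over all 8795 genes, where 0.0114% of genes were called (1 gene, none of these). At an unadjusted p under 0.05 there was 1 of 7, Arg1, against 5.00% of all genes. Arg1 had the smallest p of the 7 and a lower mean in MPA, without a call. Mrc1, Cd163, Folr2, Clec10a and Lyve1 moved together from array to array within both groups as well as between them. Over all arrays, Arg1 varied with epithelial markers, and the other 5 with connective tissue, smooth muscle, lymphatic and macrophage markers. With macrophage markers, Pearson's r of these 5 lay between 0.85 and 0.96 among MPA arrays. Among vehicle arrays it lay only between -0.12 and 0.23. With smooth muscle markers r ran from 0.33 for Clec10a to 0.77 for Lyve1 once MPA 2 and vehicle 4 were left out.

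The 250 bases upstream of the annotated start are shown for 4 members, as RefSeq gives them for build GRCm38.p6. Mrc1, Cd163 and Folr2 are shown because their levels varied together and a promoter was listed for them. Retnla is shown because, of the members with a listed promoter, only it matched the Stat6 palindrome, TTC and GAA with 4 bases between them. The windows are chr2:14229164-14229413 on the plus strand for Mrc1, chr6:124304401-124304650 on the plus strand for Cd163, chr7:101857191-101857440 on the minus strand for Folr2, and chr16:48842359-48842608 on the plus strand for Retnla. Capitals mark matches, on either strand, to the Stat6 palindrome or to GAGGAA, the core bound by the myeloid factor Spi1, also known as PU.1.
Mrc1: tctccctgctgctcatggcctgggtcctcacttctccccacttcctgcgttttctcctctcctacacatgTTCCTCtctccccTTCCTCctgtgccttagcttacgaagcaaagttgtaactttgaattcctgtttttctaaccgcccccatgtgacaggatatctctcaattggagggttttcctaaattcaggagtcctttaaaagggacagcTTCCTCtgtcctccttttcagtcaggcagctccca
Cd163: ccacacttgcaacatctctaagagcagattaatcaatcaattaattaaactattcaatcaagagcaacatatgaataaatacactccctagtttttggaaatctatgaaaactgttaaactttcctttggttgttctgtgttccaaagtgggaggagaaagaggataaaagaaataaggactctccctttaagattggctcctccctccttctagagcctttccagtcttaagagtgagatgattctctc
Folr2: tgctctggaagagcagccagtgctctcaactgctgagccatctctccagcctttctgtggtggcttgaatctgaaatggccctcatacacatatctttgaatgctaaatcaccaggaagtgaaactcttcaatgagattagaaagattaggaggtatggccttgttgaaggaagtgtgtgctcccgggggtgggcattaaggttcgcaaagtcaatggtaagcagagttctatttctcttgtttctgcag
Retnla: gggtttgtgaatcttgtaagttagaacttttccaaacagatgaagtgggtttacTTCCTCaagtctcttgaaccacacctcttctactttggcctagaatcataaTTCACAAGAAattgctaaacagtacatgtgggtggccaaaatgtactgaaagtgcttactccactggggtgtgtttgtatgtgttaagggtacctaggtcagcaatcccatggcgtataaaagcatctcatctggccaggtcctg
In Retnla the Stat6 match began 145 bases upstream of the start and the GAGGAA match 196 bases upstream. In Mrc1, 3 GAGGAA matches began 180, 167 and 35 bases upstream. The Cd163 and Folr2 windows held neither motif. A promoter was listed for 7 of the 10 genes, in 8 windows. None was listed for Arg1, Clec10a and Lyve1, so these were not searched. The Stat6 palindrome was in 1 of the 8 windows and in 5.85% of all 32851 promoters, and its shorter form TTCNNNGAA in 1, Chil3, and in 7.02% of all. GAGGAA was in 3, those of Mrc1, Mgl2 and Retnla, and in 23.3% of all. ACANNNTGT, the spaced palindrome of the progesterone and glucocorticoid receptors, was in 1, Chil3, and in 5.84% of all. The search for the last 2 motifs was added after the values were seen.

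Arg1, the arginase that turns arginine into ornithine and urea, had a lower mean in MPA but was not called. Its unadjusted p was under 0.05, as was that of 5.00% of all genes tested. Its log2 intensity in vehicle ran from 7.22 to 8.63 with a median of 8.18, and in MPA from 5.59 in MPA 5 to 7.85 in MPA 1 with a median of 6.87. All 6 MPA arrays lay below the vehicle mean and 4 of 6 below the lowest vehicle array, but the groups overlapped through MPA 1 and MPA 2, as they did for every one of the 7 members, where 0.341% of all genes did not overlap. The vehicle mean was 7.99 ± 0.625 and the MPA mean 6.82 ± 0.861 (SD, n = 6 each), a 2.24-fold lower level. The log2 difference was -1.16 (SE 0.40), its 95% interval reaching from -2.02 to -0.30, with an unadjusted p = 0.0120 and an adjusted p = 0.897 by limma. An exact two-sided permutation test over the 12 arrays gave p = 0.0260, unadjusted, where the smallest p it can give is 0.00216. With any 1 array left out the Arg1 difference stayed between -1.37, without MPA 1, and -0.92, without MPA 5. Within fluidics station 2, the wash instrument that held MPA 1, MPA 2, vehicle 5 and vehicle 6, it was -0.77 (SE 0.18, adjusted p = 0.840), and Arg1 was there the 1 member of 7 with an unadjusted p under 0.05, against 5.34% of all genes. With the station as a block in the fit of all 12 arrays the value was the same with an SE of 0.49 (adjusted p = 0.791), and with scan order as a covariate it was -1.10 (SE 0.50, adjusted p = 0.999). In both of these fits 0 of the 7 members had an unadjusted p under 0.05.

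**Figure D1:**
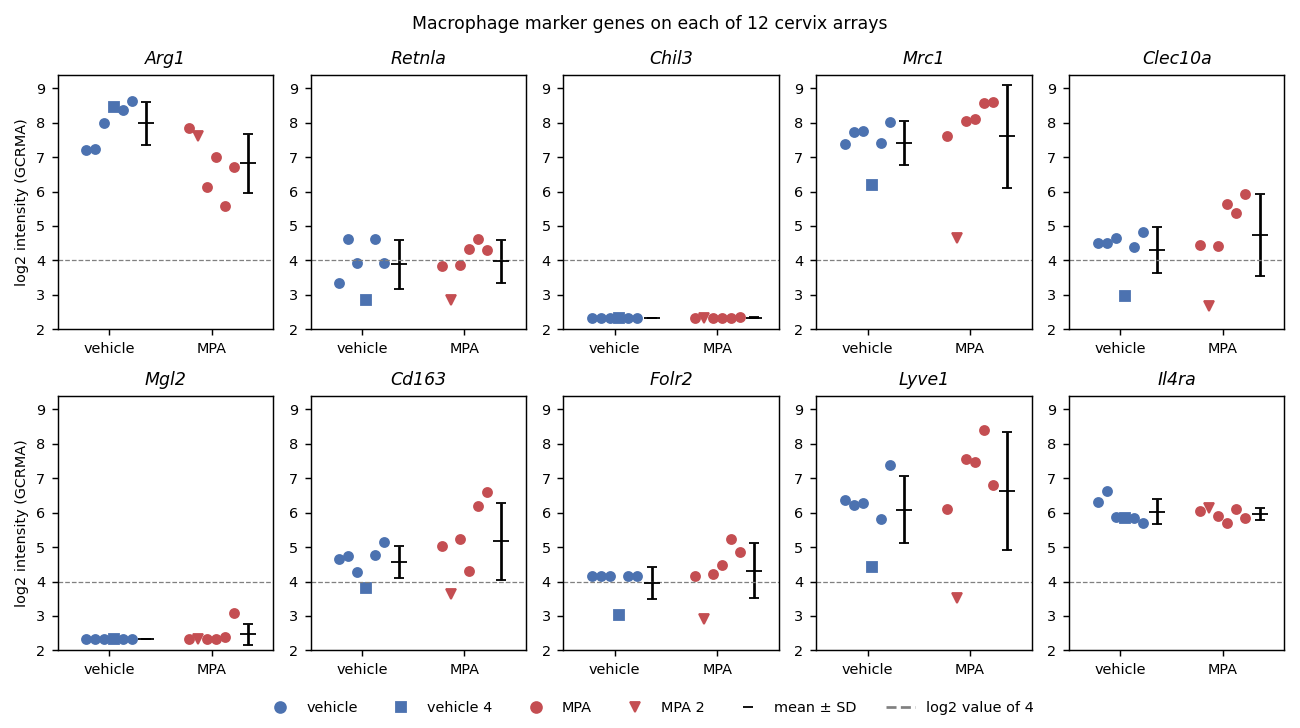
Log2 intensity of the 10 marker genes on each array, vehicle in blue and MPA in red, with the group mean ± SD in black and a dashed line at a log2 value of 4. MPA 2 (triangle) and vehicle 4 (square) are the lowest of their groups for Mrc1, Clec10a, Cd163, Folr2 and Lyve1, whereas for Arg1 the lowest array is MPA 5, at 5.59.

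Mrc1, the mannose receptor of macrophages and of some endothelium, ran in vehicle from 6.20 to 8.02 with a median of 7.57, and in MPA from 4.65 to 8.61 with a median of 8.08. MPA 2 was the lowest array of all and vehicle 4 the next lowest, while 4 of 6 MPA arrays lay above the highest vehicle array. Cd163, the scavenger receptor for haemoglobin bound to haptoglobin, ran from 3.81 to 5.16 in vehicle (median 4.70) and from 3.63 to 6.59 in MPA (median 5.13). Folr2, the folate receptor beta, ran from 3.02 to 4.15 in vehicle (median 4.15) and from 2.92 to 5.23 in MPA (median 4.35). For Folr2, 5 of 6 MPA arrays lay above the highest vehicle array, and 6 of the 12 values lay within 0.03 of each other, so those arrays were not separated on this dim probe set, and MPA 1 exceeded the vehicle arrays by as little.

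Clec10a, a lectin that binds galactose-type sugars, ran from 2.98 to 4.83 in vehicle (median 4.50) and from 2.67 to 5.92 in MPA (median 4.92). Lyve1, a hyaluronan receptor of lymphatic endothelium and perivascular macrophages, ran from 4.41 to 7.39 in vehicle (median 6.27) and from 3.52 to 8.39 in MPA (median 7.14). In each of these 5 genes MPA 2 held the lowest value and vehicle 4 the second lowest of the 12, and the highest was MPA 6 for Mrc1, Clec10a and Cd163 and MPA 5 for Folr2 and Lyve1. The spread was wide: the SD over the 12 arrays was 1.36 for Lyve1 and 1.10 for Mrc1, larger than for 99.2% and 98.2% of the 8795 genes.

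None of the 5 passed in the comparison of MPA with vehicle. The log2 difference, MPA minus vehicle, was 0.60 for Cd163 (SE 0.45, exact permutation p = 0.264) and 0.56 for Lyve1 (SE 0.73, exact p = 0.513). It was 0.44 for Clec10a (SE 0.51, exact permutation p = 0.437), 0.35 for Folr2 (SE 0.34, exact p = 0.396) and 0.19 for Mrc1 (SE 0.60, exact p = 0.803). The adjusted p by limma was 1.00 for each, and the 95% intervals were wide, from -1.03 to 2.14 for Lyve1 and from -0.38 to 1.57 for Cd163.

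Of the 12 arrays left out in turn, MPA 2 moved these differences furthest up. Without MPA 2 the log2 difference was 1.18 for Lyve1 (SE 0.50), 0.91 for Cd163 (SE 0.38), 0.86 for Clec10a (SE 0.37), 0.78 for Mrc1 (SE 0.30) and 0.63 for Folr2 (SE 0.25). With Arg1 at -1.32 (SE 0.40), 6 of the 7 members then had an unadjusted p under 0.05 by limma, where 10.2% of all genes did. Again 0 of 7 were called, as were 0 of 8795 genes, with adjusted p values of 0.431 for Arg1 and from 0.464 to 0.471 for the other 5. The 5 genes vary together and are not 5 separate observations. Without MPA 5 the Lyve1 difference was 0.21, and without MPA 5, MPA 6 or vehicle 4 that of Mrc1 was -0.0022, -0.0074 and -0.051.

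Within fluidics station 2 the sign of all 5 turned. The log2 difference there was -1.80 for Lyve1, -1.58 for Mrc1, -1.05 for Clec10a, -0.63 for Cd163 and -0.61 for Folr2 (adjusted p = 0.840 for each by limma). With the station as a block in the fit of all arrays the differences were the same, because only this station held both groups. This comparison rests on 2 arrays against 2, and 1 of them is MPA 2.

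**Figure D2:**
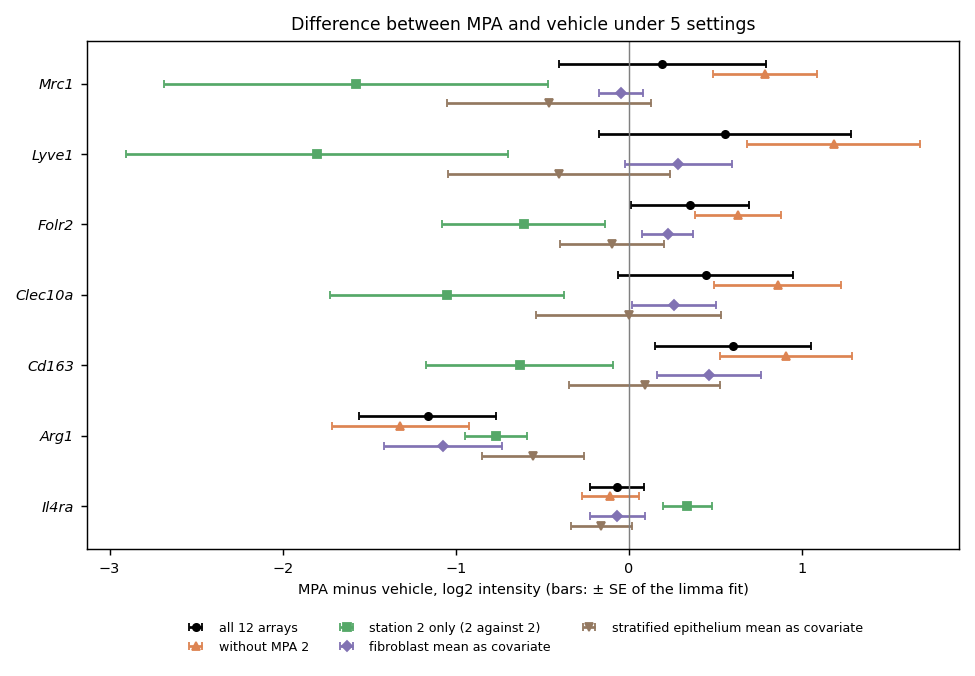
Log2 difference between MPA and vehicle (points, with bars of ± SE) for the 7 members that passed the filter, under 5 settings of the limma fit. Arg1 stays below 0 in all of them, from -1.32 to -0.56, whereas Mrc1, Lyve1, Folr2, Clec10a and Cd163 lie above 0 without MPA 2 and below 0 within station 2.

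The 5 genes followed each other over the 12 arrays. Of 70 relations computed, 10 were pairs among them, with Pearson's r from 0.71 for Cd163 with Lyve1 to 0.94 for Clec10a with Folr2 and Spearman's rho from 0.51 to 0.89. The highest permutation p of r was 0.0110 (0.0257 after Benjamini-Hochberg adjustment over the 70) and that of rho was 0.0937 (0.134 adjusted), the latter for Clec10a with Cd163. Without the 2 arrays farthest from the median of the first gene, r ran from 0.53 to 0.85, and without MPA 2 and vehicle 4 from 0.45 to 0.85. Taken as deviations from the mean of each group, r ran from 0.69 to 0.94, with MPA 2 and vehicle 4 included. These 2 arrays were the lowest of their groups in all 5 genes, and r within the groups was not computed without them. In Folr2 the other vehicle arrays lay between 4.147 and 4.152, so its r among vehicle arrays rests on vehicle 4. Arg1 had a negative r with each of the 5, and no r had an adjusted p under 0.05, though the rho with Folr2 did. With Folr2 it was -0.62 (permutation p = 0.0321, adjusted p = 0.0577; rho = -0.66, permutation p = 0.0227, adjusted p = 0.0454), and -0.47 without MPA 3 and MPA 5. With Cd163 it was -0.58, with Lyve1 -0.57, with Clec10a -0.47 and with Mrc1 -0.43 (adjusted permutation p = 0.0830, 0.0839, 0.171 and 0.210).

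Connective tissue markers moved with the 5 genes. Of 8 fibroblast markers on the list, all 8 passed the filter, and their mean, centred over the 12 arrays, ran from -1.78 in MPA 2 to 0.75 in MPA and from -0.93 in vehicle 4 to 0.44 in vehicle. Mrc1 had r = 0.98 with this mean (permutation p = 1e-05, the lowest possible with 100000 draws; adjusted p = 1.75e-04; rho = 0.93, permutation p = 7e-05, adjusted p = 0.00280), and r = 0.89 without MPA 2 and vehicle 4. For Lyve1, Folr2, Clec10a and Cd163 r was 0.91, 0.91, 0.88 and 0.75 (adjusted permutation p at most 0.0184, and at most 0.0340 for rho), and without MPA 2 and vehicle 4 it was 0.68, 0.72, 0.59 and 0.62. With the fibroblast mean as a covariate, a setting added after the values were seen, the MPA difference of Mrc1 was -0.047 (SE 0.13) and that of Lyve1 was 0.29 (SE 0.31). Under the same setting Cd163 had 0.46 (SE 0.30), Clec10a 0.26 (SE 0.24) and Folr2 0.22 (SE 0.15), and none was called. The fibroblast mean itself differed by 0.16, MPA minus vehicle, and followed these genes, so such a fit gives lower differences whatever the cause. The 6 smooth muscle markers, all of which passed the filter, had a mean from -1.75 in MPA 2 to 0.85 in MPA and from -0.66 to 0.43 in vehicle. With this mean r was 0.94 for Mrc1, 0.92 for Lyve1, 0.83 for Folr2, 0.79 for Clec10a and 0.66 for Cd163 (adjusted permutation p at most 0.0402, and at most 0.130 for rho). Without MPA 2 and vehicle 4 it was 0.70, 0.77, 0.53, 0.33 and 0.40.

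**Figure D3:**
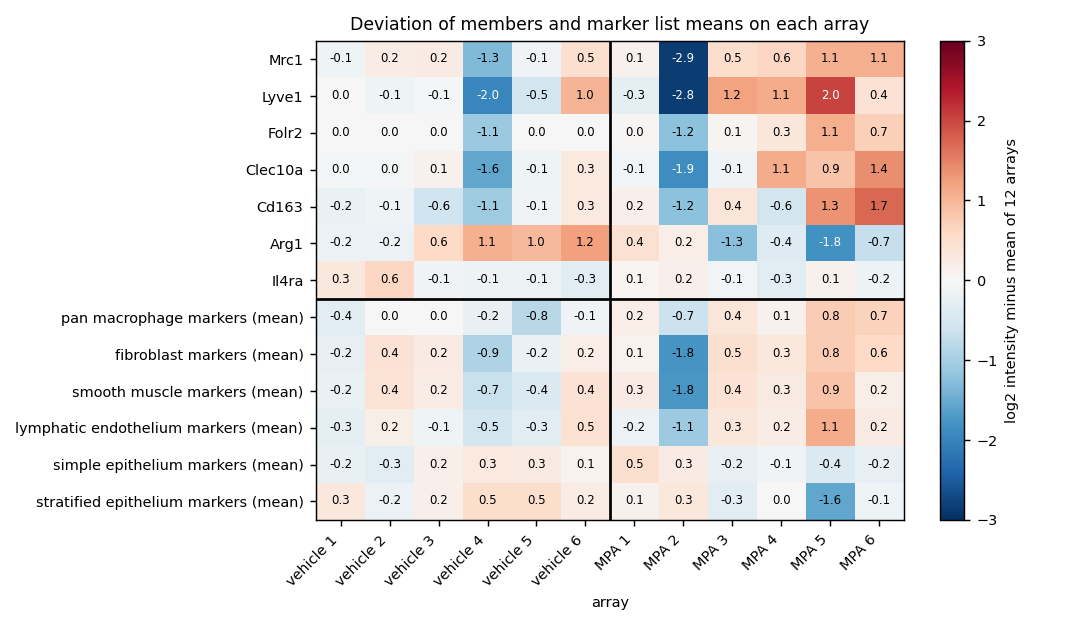
Log2 intensity minus the mean of the 12 arrays for the 7 members that passed the filter (upper rows) and for the mean of each marker list (lower rows), by array. Mrc1, Lyve1, Folr2, Clec10a and Cd163 are low in MPA 2 and vehicle 4 together with the fibroblast and smooth muscle lists, and Arg1 is low in MPA 3 and MPA 5, where the stratified epithelium mean is -0.32 and -1.57.

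All 5 genes also ran with lymphatic markers, Lyve1 with the highest r, 0.94. The r of Lyve1 was nearly as high with the smooth muscle mean (0.92) and the fibroblast mean (0.91). Of 8 on that list 7 were named on the array and 5 passed the filter, among them Flt4, the receptor for lymphatic growth factors, with a log2 difference of 0.42 (SE 0.48), and Mmrn1, a lymphatic matrix protein, with 0.65 (SE 0.43), the members with the smallest p. Pdpn, Reln and Gja1 were the others that passed. Prox1, the transcription factor that defines lymphatic endothelium, did not pass, Sema3d was dim on every array and Ccl21a was not named on it. The median difference of the 5 that passed was 0.18, with 4 positive. It was 0.59 without MPA 2 and -0.72 within station 2, with 0 of 5 positive there. The lymphatic mean ran from -1.08 to 1.11 in MPA and from -0.54 to 0.46 in vehicle. Lyve1 had r = 0.94 with it (permutation p = 1e-05, adjusted p = 1.75e-04; rho = 0.92, permutation p = 8e-05, adjusted p = 0.00280; r = 0.88 without MPA 2 and MPA 5), and r = 0.69 with the mean of the macrophage list (permutation p = 0.0128, adjusted p = 0.0280; rho = 0.71, permutation p = 0.0131, adjusted p = 0.0340; r = 0.67 without MPA 5 and vehicle 5). With the lymphatic mean r was 0.87 for Mrc1, 0.86 for Folr2, 0.78 for Clec10a and 0.76 for Cd163 (adjusted permutation p at most 0.0131, and at most 0.0326 for rho). With the macrophage mean r was 0.70 for Mrc1, 0.71 for Folr2, 0.66 for Clec10a and 0.75 for Cd163 (adjusted permutation p at most 0.0383, and at most 0.0667 for rho). Within the groups the r of the 5 with the macrophage mean lay between 0.85 and 0.96 among the MPA arrays and between -0.12 and 0.23 among the vehicle arrays. The differences between these correlations were not tested. A second Lyve1 probe set, above 4 on 7 arrays, had a log2 difference of 0.64 (SE 0.71), the same sign as the first.

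Arg1 ran with epithelial markers. All 14 stratified epithelium markers were on the array and 13 passed the filter. Of these 13, 0 had a positive difference, where 56.3% of all genes tested did. Their median was -0.43, and 0 were called. Within station 2, 7 of 13 were positive, against 53.8% of all genes, with a median of 0.04. Sfn, an epithelial protein of the stratified layers, had -1.06 (SE 0.33), and Ivl, which encodes involucrin of the cornified layer, had -0.93 (SE 0.27). The mean of the list ran from -1.57 in MPA 5 to 0.32 in MPA and from -0.18 to 0.54 in vehicle. Arg1 had r = 0.84 with that mean (permutation p = 2.4e-04, adjusted p = 0.00140; rho = 0.78, permutation p = 0.00420, adjusted p = 0.0210), and r = 0.71 without MPA 3 and MPA 5. Within the groups, r was 0.87 among the MPA arrays and 0.59 among the vehicle arrays.

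Arg1 ran with simple epithelium markers as well. Of 8, 7 passed the filter, with a median difference of -0.14, 2 with a positive and 5 with a negative difference (7 of 7 positive within station 2), and the smallest p belonged to the keratin Krt8 (-0.27, SE 0.15) and the epithelial transcription factor Elf3 (-0.36, SE 0.24). Arg1 had r = 0.81 with their mean (permutation p = 0.00164, adjusted p = 0.00608; rho = 0.76, permutation p = 0.00634, adjusted p = 0.0264; r = 0.82 without MPA 1 and MPA 5), with 0.94 among the MPA and 0.90 among the vehicle arrays. With the stratified epithelium mean as a covariate, also added after the values were seen, the Arg1 difference was -0.56 (SE 0.29, adjusted p = 0.585). That mean itself differed by -0.53, MPA minus vehicle, and followed Arg1, so such a fit gives a smaller Arg1 difference whatever the cause. The part of epithelium in the Arg1 difference was not tested. With the fibroblast mean as a covariate the Arg1 difference was -1.07 (SE 0.34, adjusted p = 0.566). Arg1 had r = -0.70 with the mean of the macrophage list (permutation p = 0.0114, adjusted p = 0.0257; rho = -0.69, permutation p = 0.0161, adjusted p = 0.0364), and -0.51 without MPA 5 and vehicle 5. This r includes the difference between the groups. As deviations from the group means r was -0.55, with -0.70 among the MPA arrays and -0.24 among the vehicle arrays.

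**Figure D4:**
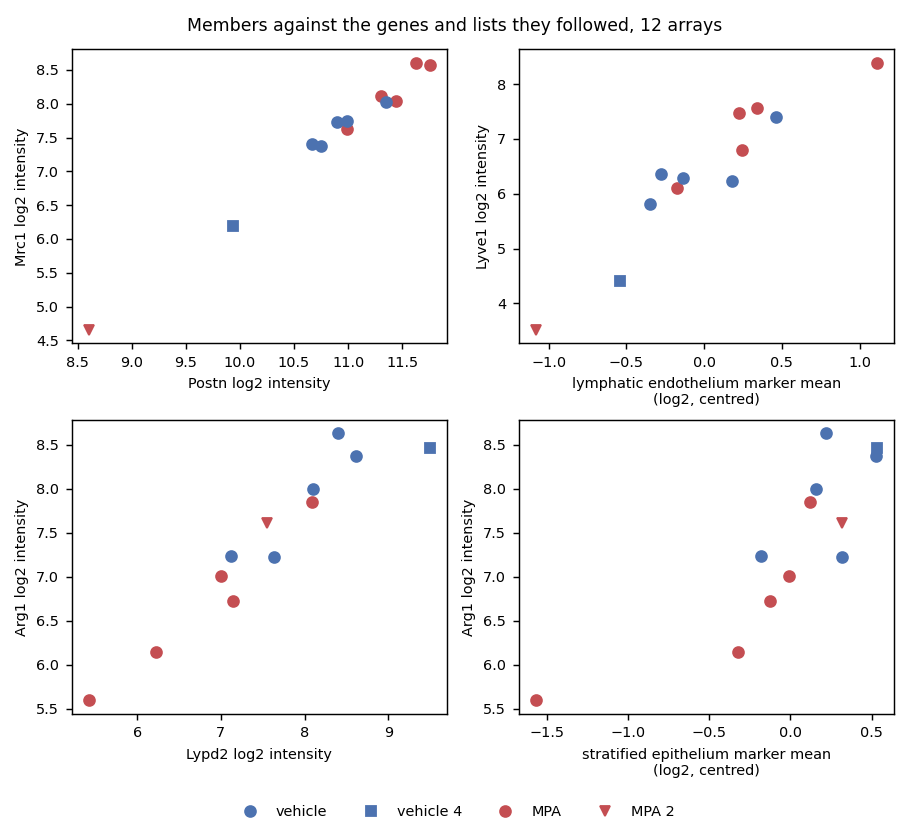
Each point is 1 array, vehicle in blue and MPA in red, with Mrc1 against Postn, Lyve1 against the lymphatic endothelium marker mean, and Arg1 against Lypd2 and against the stratified epithelium marker mean, all in log2 intensity. Mrc1 lies near a straight line with Postn (r = 0.99) that includes MPA 2 (triangle) and vehicle 4 (square), and Arg1 lies lowest in MPA 5, where both its partners are also lowest.

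The genes most like each member were the 3 with the highest Pearson's r over the 12 arrays among 8794 others, chosen for that value and so given without a p. For Mrc1 they were Postn, the matrix protein periostin (r = 0.99, rho = 0.94), Lum, the collagen-binding proteoglycan lumican (r = 0.99), and Cav1, the caveolar coat protein (r = 0.99). Postn and Lum are also on the fibroblast list. Without MPA 2 and vehicle 4 the r of Mrc1 with Postn was 0.97. For Arg1 they were Lypd2, a secreted protein of the Ly6 family (r = 0.95, rho = 0.93), Tff1, the trefoil peptide of mucous epithelia (r = 0.94), and Anxa2, a membrane-binding annexin (r = 0.94). Lypd2 had a log2 difference of -1.32 and Anxa2 one of -0.33, MPA minus vehicle, and none of the 3 was called.

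For Folr2 the most alike genes were Fkbp7, a chaperone of the endoplasmic reticulum (r = 0.96), Lrpap1, the chaperone of the lipoprotein receptor family (r = 0.96), and Jcad, a junction protein of endothelium (r = 0.96). For Lyve1 they were the proprotein convertase Pcsk5 (r = 0.96), the extracellular matrix glycoprotein Emilin2 (r = 0.95) and the lipid scramblase Ano6 (r = 0.95). Clec10a was closest to the steroid sulfate carrier Slc10a6 (r = 0.96), to Septin2 (r = 0.94) and to Folr2 (r = 0.94). Cd163 was closest to Agtpbp1 (r = 0.93), the interferon-induced Trim30a (r = 0.92) and the mitochondrial kinase Pink1 (r = 0.92). Il4ra was closest to Setd5 (r = 0.85), Atp13a1 (r = 0.83) and Marcks (r = 0.83), and its r with each of the other 6 members lay between -0.26 and -0.06 (adjusted permutation p at least 0.490, and at least 0.249 for rho).

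Retnla, Chil3 and Mgl2 did not pass the filter, and their tests come from the fit without it, over 18194 genes, where 0% of genes were called by limma (626 at an unadjusted p under 0.05). Retnla, a secreted protein of the resistin family, ran from 2.86 to 4.63 in vehicle (median 3.93) and from 2.84 to 4.63 in MPA (median 4.08), and exceeded 4 on 2 vehicle and 3 MPA arrays. The groups covered nearly the same range, and the log2 difference was 0.09 (SE 0.37, adjusted p = 0.967 by limma), its 95% interval reaching from -0.74 to 0.91. Its lowest values were again in MPA 2 and vehicle 4. Chil3, a chitinase-like lectin also made by neutrophils and known as Ym1, lay between 2.33 and 2.35 on all 12 arrays, near the lowest log2 value in the table, 2.13. Mgl2, a lectin encoded next to Clec10a, lay between 2.33 and 2.39 on 11 arrays and at 3.08 in MPA 6. Detection flags were not analysed here, so such values show only that a probe set was dim.

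Il4ra, the receptor chain shared by interleukin-4 and interleukin-13, had the smallest spread of the 7 members that passed, with an SD of 0.27 over the 12 arrays, larger than for 56.1% of all genes. It ran from 5.69 to 6.62 in vehicle (median 5.87) and from 5.69 to 6.15 in MPA (median 5.99), so that every MPA array lay within the vehicle range. Its log2 difference was -0.072 (SE 0.16, adjusted p = 1.00 by limma), with 95% limits of -0.41 and 0.27. Without vehicle 2, the highest array, it was 0.045, and within station 2 it was 0.34 (SE 0.14). Both other Il4ra probe sets lay at or below 2.64 on every array.

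The rest of the interleukin-4 pathway was likewise without calls. Of 18 listed genes, 17 were named on the array, 8 passed the filter, 6 had a positive and 2 a negative difference, and the median was 0.14, where the median of all genes tested was 0.02. Jak1, a kinase bound to the receptor, had 0.17 (SE 0.08), and Klf4, a transcription factor that acts with Stat6, had -0.26 (SE 0.20). Il13ra1, the partner chain for interleukin-13, had 0.16 (SE 0.17), and Stat6 had 0.01 (SE 0.08, 95% interval -0.16 to 0.18). The ligands themselves were dim: Il4 lay between 2.30 and 2.31 and Il13 between 2.36 and 2.39 on every array.

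Other alternative activation genes were mostly dim. Of 18, 16 were named on the array and 3 passed, 0 with a positive difference and 0 called. Their median was -0.048, and without MPA 2 it was 0.31 with 2 of 3 positive. Within station 2 it was -1.36 with 0 of 3 positive. Tgm2, a transglutaminase, had -0.19 (SE 0.09), and the matrix protein Fn1 had -0.05 (SE 0.42). Chil4, a close relative of Chil3, lay between 2.43 and 2.53. Of 18 genes of classical activation, 17 were named on the array and only Irf5, an interferon regulatory factor, passed the filter, at -0.05 (SE 0.12), while Nos2, the inducible nitric oxide synthase that competes with Arg1 for arginine, lay between 2.29 and 2.30. Of 11 other genes of arginine and polyamine metabolism, 7 passed, 5 with a positive difference. Arg2, the mitochondrial arginase, had 0.73 (SE 0.57), opposite in sign to Arg1, with values from 3.85 to 6.98 in MPA and from 3.85 to 6.31 in vehicle, and Srm, spermidine synthase, had 0.36 (SE 0.19).

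Of 24 other genes of resident macrophages, 23 were named on the array, 16 passed, and 15 of these had a positive difference, with a median of 0.26 and 0 called, where 56.3% of all genes tested had a positive difference. The 7 that did not pass, Timd4, Ltc4s, C1qa, Vsig4, Marco, Siglec1 and Cd209g, were dim on every array. The genes share arrays and are not separate observations. Pf4, platelet factor 4, had 0.68 (SE 0.14, adjusted p = 0.592 by limma), with every MPA array above the highest vehicle array. The groups did not overlap for 0.341% of all genes tested. The complement subunit C1qc, above 4 on 8 arrays, had 0.70 (SE 0.36). Both were picked for the smallest p of the 16. Without MPA 2, 15 of 16 again had a positive difference, with a median of 0.64, and within station 2 it was 5 of 16 with a median of -0.22. Of 18 pan-macrophage genes 11 passed, 10 with a positive difference and a median of 0.46, and 0 were called. The 2 with the smallest p of these 11 were Aif1 and the signalling adaptor Tyrobp. Aif1 had 0.93 (SE 0.21, adjusted p = 0.592 by limma) and Tyrobp 0.69 (SE 0.19). For Aif1, also picked for its small p, the groups again did not overlap, against 0.341% of all genes tested. Csf1r, the receptor for the macrophage growth factor, had 0.44 (SE 0.52) and, like Mrc1, was lowest in MPA 2 at 6.08. Adgre1, a surface receptor of mouse macrophages, lay between 2.53 and 3.85 on all arrays, and with Cd68, Itgam, Fcgr1, Cx3cr1 and Spi1 it never exceeded 4. The mean of the pan-macrophage list ran from -0.65 to 0.76 in MPA and from -0.83 to 0.01 in vehicle, and within station 2 its members kept a median of 0.40, 8 of 11 positive.

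Other cell types that carry some of these markers were measured by fixed lists, with 0 genes called in each. Neutrophil markers, relevant to Chil3 and Arg1, were dim for 10 of 11, S100a8 and S100a9 among them. Only Ltf passed (-0.09, SE 0.15), from 12.24 to 13.02 in MPA and from 12.47 to 13.02 in vehicle. With the rest of the list dim, Ltf alone is no measure of neutrophils here. Eosinophil markers passed for 0 of 7. Dendritic cell markers, relevant to Clec10a and Mgl2, passed for 4 of 11, all of them genes of class II antigen presentation, with H2-Eb1 at 0.91 (SE 0.39) and Cd74 at 0.11 (SE 0.28), while Flt3, Zbtb46 and Itgax were dim on every array. Monocyte markers passed for 4 of 5, with Hp at 0.85 (SE 0.46) and Ccr2 at 0.33 (SE 0.69). The median of the 4 was 0.19, and it was 0.52 without MPA 2 and -0.42 within station 2. Adipocyte markers, relevant to Retnla, passed for 2 of 5, Adipoq at 0.33 (SE 1.09) and Fabp4 at 0.10 (SE 0.77), and their mean ran from -2.54 in MPA 2 to 2.39 in MPA and from -2.40 to 2.40 in vehicle. The median of these 2 was 0.22, and it was 0.75 without MPA 2 and -3.58 within station 2, with both genes negative there. Blood endothelium markers, relevant to Mrc1, passed for 2 of 8, Plvap at -0.02 (SE 0.18) and Tek at 0.03 (SE 0.45). Their median was 0.0056, and it was 0.24 without MPA 2 and -0.78 within station 2. Fetal liver and yolk sac markers, relevant to Arg1, passed for 2 of 6, with Hbb-y, an embryonic globin, at -2.71 (SE 0.76) and Afp at -1.30 (SE 0.44), and Alb dim on every array. Arg1 had r = 0.31 with the mean of these 2 (permutation p = 0.324, adjusted p = 0.384; rho = 0.42, permutation p = 0.177, adjusted p = 0.217), and 0.41 without MPA 6 and vehicle 1. As deviations from the group means that r was -0.32. The part of these cell types in the results on the members was not tested.

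The remaining lists also held 0 called genes. Mast cell markers passed for 2 of 9, Mcpt4 at 0.57 (SE 0.55) and Cma1 at 0.56 (SE 0.57), and lymphocyte markers for 1 of 8, Rora at -0.02 (SE 0.12). The mast cell median was 0.56, and it was 1.03 without MPA 2 and -1.23 within station 2, with 0 of 2 positive there. Among fibroblast genes Col1a2 had 0.27 (SE 0.25) and Col3a1 0.16 (SE 0.25), and among smooth muscle genes Cnn1 had 0.22 (SE 0.46) and Acta2 0.12 (SE 0.29). The fibroblast median was 0.14 with 8 of 8 positive, 0.48 without MPA 2 and -0.82 within station 2 with 0 of 8 positive, and the smooth muscle median was 0.06, 0.41 and -0.68. Of 11 markers fixed to check the labelled tissue, 9 passed, including Pgr (-0.32, SE 0.09), Krt14 (-0.43, SE 0.29), Esr1, Trp63 and Hoxa11. Hoxd13 did not pass and Hoxa13, a homeobox gene of the lower reproductive tract, was dim on every array.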

How the data were processed

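Cervical RNA of 12 samples was measured on Affymetrix arrays, 6 per group, grouped by sample title. The authors deposited linear GCRMA intensity for 45101 probe sets (GCRMA is named in the submitters' processing notes; version not given in the sources used here), that is, after background correction, normalization between arrays and summary over probes. Log2 was taken with no pseudocount. Of these probe sets 34958 had 1 gene symbol, updated through Entrez numbers (34754 matched RefSeq, GRCm38.p6). A gene was its probe set with the highest mean, 18194 in all, and 8795 that exceeded 4 in log2 on 6 or more arrays were tested with limma 3.58.1 in R 4.3.3 without covariates; adjusted p values under 0.05 were called. Levels of different genes were not compared. Array medians over all probe sets, in linear intensity and not log2, lay between 6.62 and 6.86. The number of arrays limits the precision. No 2 arrays held identical values. The test was checked on simulated data. Correlations have permutation p values from 100000 draws. The members, lists and the rule for named genes (all members; per list the called genes or the 2 with the smallest p; a few fixed genes, of which Il2rg and Retnlg have no named probe set; the 3 genes most like each member) were chosen with earlier results of these data known. Alternatives covered filter, probe set, normalization, pseudocount, variance model, array weights, test, threshold, station, replicate number and arrays left out; scan order and 2 tissue covariates were chosen after seeing the data. Plots used matplotlib 3.10.9.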

Additional observations from a re-analysis of the deposited data

Results flagged for a closer look

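Among the 20 groups of 6 values checked (10 genes, each in MPA and vehicle), 5 held 1 array that lay far from the others by Dixon's ratio, where chance gives about 1 in 20; the genes share arrays, so these are not separate events. Mrc1 in MPA 2 was 4.65, with the next MPA array at 7.63. Vehicle 4 lay apart in 3 genes: Mrc1 was 6.20 there (next 7.37), Clec10a 2.98 (next 4.39) and Folr2 3.02 (next 4.15). Mgl2 in MPA 6 was 3.08, with the next MPA array at 2.39, both below the log2 value of 4 used as the filter.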

How the results depend on the processing

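Over 29 alternatives 0 of the members were called, with a lowest adjusted p of 0.410 (Arg1 with array weights), and Arg1 kept its sign in 29 of 29, from -1.37 to -0.56. The sign held in 175 of 199 values of the 7 members that passed the filter. Many of these values could not differ from the main one. Settings that alter only the gene filter, test, variance model or threshold leave the difference as it was, as does the replicate block. The station block and station 2 alone give the same difference and are counted separately. With the station as a block, and equally within station 2, the sign turned in Mrc1 (-1.58), Lyve1 (-1.80), Clec10a (-1.05), Cd163 (-0.63), Folr2 (-0.61) and Il4ra (0.34). With scan order as a covariate it turned in Mrc1 (-0.33), Clec10a (-0.064) and Il4ra (0.10), with the stratified epithelium mean in Mrc1 (-0.46), Lyve1 (-0.40), Folr2 (-0.10) and Clec10a (-0.0021), and with the fibroblast mean in Mrc1 (-0.047). With 1 array left out, Mrc1 ran from -0.051 to 0.78 and Il4ra from -0.14 to 0.045; the other members kept their sign. The cause was not tested. Without MPA 2 and MPA 5 together Lyve1 had 0.90 and Mrc1 0.69. The labels give both groups replicate numbers 1 to 6. Same-numbered arrays correlated from -0.60 to 0.05 in their deviations from the group means. These values show no pairing by number, but they cannot exclude that same-numbered samples were handled together. With the replicate block 0 members were called and Arg1 had -1.16 (SE 0.47, adjusted p = 1.00); all genes called went from 1 to 0. Without the filter 0 of 18194 genes were called. Dim probe sets limit what can be said of Retnla, Chil3, Mgl2, Folr2 and Clec10a.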
